A study of Rattus norvegicus with 18 samples.

Results

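Mast cells are resident immune cells of connective tissue, and 8 genes that mark them were followed in rat subcutaneous abdominal fat after gastric bypass surgery. The genes were Ms4a2, Fcer1a, Kit, Hdc, Cpa3, Cma1, Tpsb2 and Tpsab1. They were chosen as established mast cell markers, but with earlier results of these data known. Counts and medians over the genes are therefore descriptions and not tests. Every probe set of the array that carried 1 of these symbols alone was taken. That gave 9 probe sets for 8 genes out of 31099 probe sets and 14217 named genes. The study hybridised 18 arrays, 9 of subcutaneous fat and 9 of hypothalamus, with 3 arrays in each of 3 treatment groups per tissue. RYGB-Success animals had undergone Roux-en-Y gastric bypass, surgery in which food passes through a small stomach pouch straight into a limb of the lower small bowel, and were losing weight. RYGB-Fail animals had undergone the same operation and were gaining weight. Pair-Fed animals were given the amount of food that the treated rats ate. The sources used here do not give strain, sex, age or time after surgery, nor whether the Pair-Fed animals had a sham operation. The labels call the samples of a group biological replicates and do not say whether RNA was pooled.

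As background, mast cells carry the high-affinity receptor for immunoglobulin E, whose alpha chain binds the antibody and whose beta chain amplifies the signal. Crosslinking of this receptor releases granules that hold histamine and large amounts of proteases, namely tryptases, chymases and carboxypeptidase A3. The cells depend on stem cell factor acting through the receptor tyrosine kinase Kit. In fat they lie along blood vessels and in the connective tissue between adipocytes.

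Values are the deposited signal of each probe set, a linear brightness on an arbitrary scale, and differences are of its log2. Only probe sets in the upper 60% by mean log2 signal were tested, which put the lowest mean signal tested at 88.9 in fat and 52.7 in hypothalamus. These filter signals are not measured detection limits. In fat 6 of the 9 probe sets passed, 1 each for Ms4a2, Fcer1a, Hdc, Cpa3, Cma1 and Tpsb2. Those for Kit and Tpsab1 and the second Ms4a2 probe set did not, and they are described without a test. The signal of one probe set cannot be set against that of another, since each binds its target differently. In whole tissue, fewer mast cells and less RNA per mast cell cannot be told apart.

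The fat arrays had like trimmed means but differed in median signal and in the markers of other cells. Median signal was 98.2 to 200.04 on 8 fat arrays and 288 on replicate 3 of RYGB-Fail, called Fail 3 below, whose median correlation with the other fat arrays was 0.73 against 0.794 to 0.848. Adipocyte markers had a mean log2 signal of 10.4 to 11.8 on the fat arrays and of 4.14 to 6.63 on the hypothalamus arrays. Neuron markers had 4.44 to 7.12 in fat and 11.1 to 11.7 in hypothalamus, so both tissues carried the markers of their labels.

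All 8 mast cell genes had a higher mean signal in fat than in hypothalamus. Only 3 passed the filter over the 18 arrays, and they did so through their fat signals, so that they were higher in fat was set by the filter and their count is no result. Each was called higher in fat by limma, at a threshold of 0.05 for the Benjamini-Hochberg adjusted p, where 65.2% of all 18625 probe sets tested passed and 37% passed as higher in fat. Cma1, the chymase, had signals of 388 to 2814 in fat, with a median of 996, and of 5.53 to 32.0 in hypothalamus, with a median of 9.41. Its difference was 6.36 ± 0.42 (limma estimate ± SE, adjusted p = 3.01e-10). Cpa3, carboxypeptidase A3, ran from 592 to 5514 in fat, with a median of 2106, and from 11.8 to 71.4 in hypothalamus, with a median of 35.5 (difference 5.66 ± 0.37, adjusted p = 3.23e-10). Fcer1a, the immunoglobulin E-binding alpha chain, ran from 208 to 738 in fat, with a median of 350.2, and from 0.633 to 65.5 in hypothalamus, with a median of 33.2 (difference 4.55 ± 0.82, adjusted p = 9.3e-05). For each of the 3 genes the lowest fat array lay above the highest hypothalamus array, which held for 13.8% of probe sets in this direction. The filter favoured this separation as well, so it and the adjusted p values above are given as descriptions only. The hypothalamus means of the 3 genes lay under the filter signal of this comparison, 71.7, so the differences above rest on values under it. With low values raised to that signal the means differed 14.5-fold for Cma1, 24.8-fold for Cpa3 and 5.05-fold for Fcer1a.

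The other 5 genes were too dim over the 18 arrays to be tested. With low values raised to the filter signal their differences, fat minus hypothalamus, were 1.07 for Ms4a2, 0.77 for Tpsb2, 0.58 for Hdc, 0.37 for Kit and 0.30 for Tpsab1. As measured they were 2.94 for Ms4a2, 1.68 for Tpsb2, 1.56 for Hdc, 2.13 for Kit and 3.47 for Tpsab1, so Tpsab1 had the largest or the smallest of the 5 depending on values under that signal. Over the 8 genes the median difference as measured was 3.20, and 1.01 with a pseudocount of 10% of the mean signal. Over all probe sets tested it was 0.17, with 44.4% of them below 0. In hypothalamus 70 of the 81 values of the 9 probe sets lay under 52.7, and the highest single value was 111, of Hdc on an RYGB-Success array. Hdc, histidine decarboxylase, makes histamine and is also known from histamine neurons of the hypothalamus. Its signals there ran from 6.82 to 111, against 76.0 to 183 in fat.

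**Figure D1:**
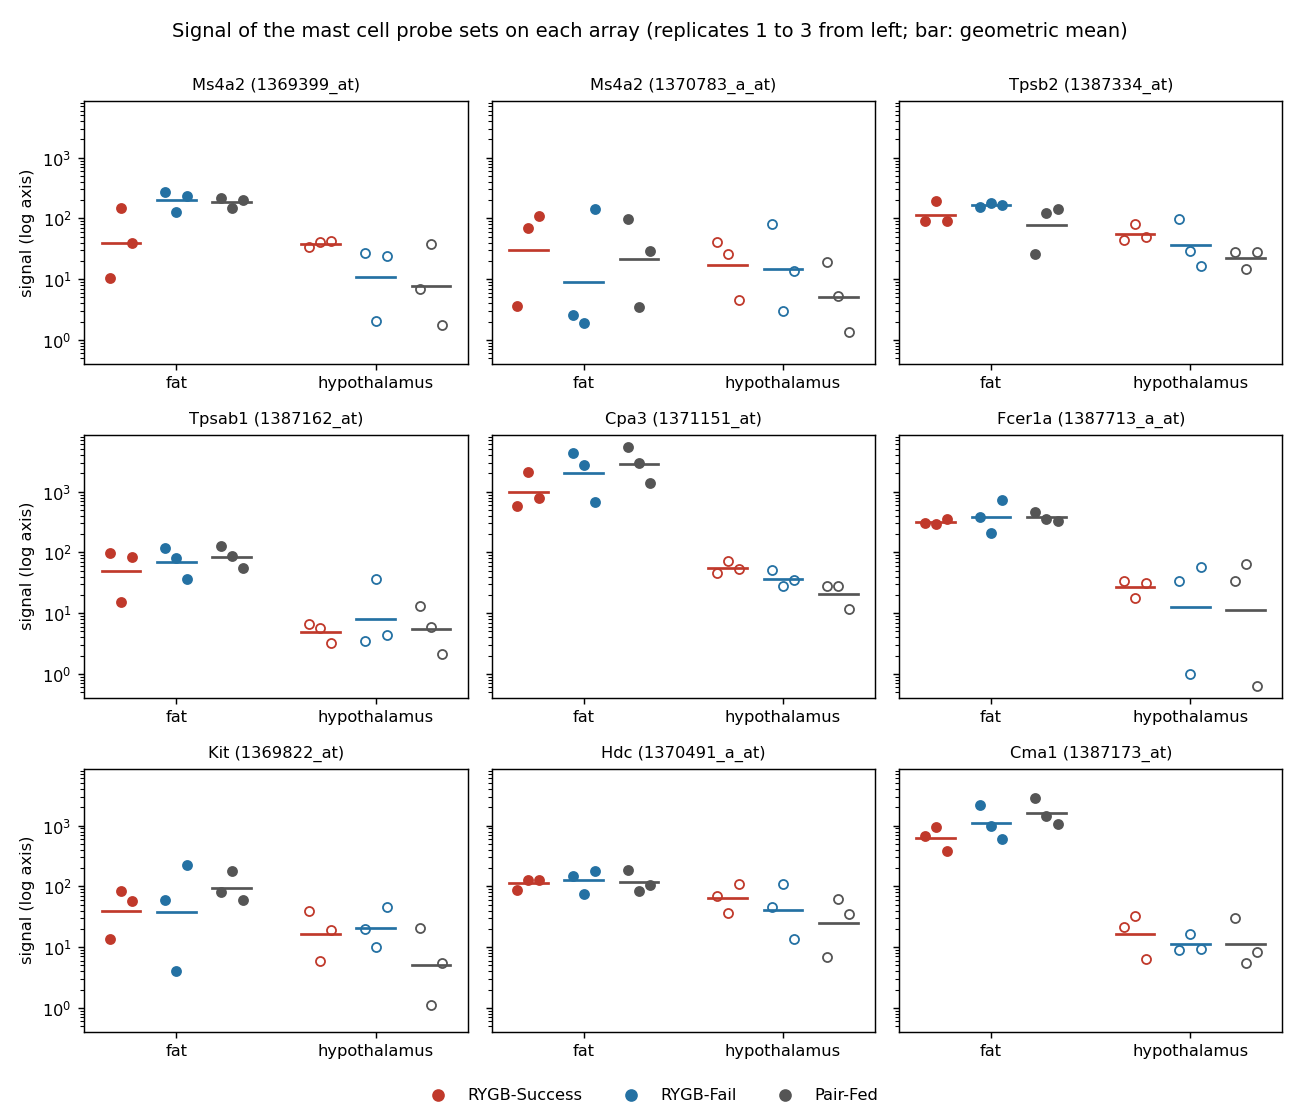
Signal of each of the 9 mast cell probe sets on a log axis, 1 point per array, with filled points for fat, open points for hypothalamus and a bar at each group's geometric mean. Cpa3 and Cma1 show the widest gap between tissues, with fat signals of 592 to 5514 and 388 to 2814 and no hypothalamus signal above 71.4.

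Fat of RYGB-Success rats was compared with fat of Pair-Fed rats to ask how mast cell genes stood in animals losing weight after bypass, against animals eating the same amount. Of the 8 genes 7 had a lower mean in RYGB-Success and 1, Tpsb2, a higher one. None of the 6 tested passed after adjustment, and neither did any other probe set (0% called of 18625). Ms4a2 and Cma1 had an unadjusted p under 0.05, a level reached by 4.86% of all probe sets. In both, every RYGB-Success array lay below every Pair-Fed array, which was so for 7.69% of probe sets. The median difference was -1.01 over the 8 genes, -0.82 over the 6 tested and 0.11 over all probe sets tested, of which 41.8% had a difference below 0. The median over the 8 genes was smaller in size with a pseudocount, as given in the last section. With low values raised to the filter signal Ms4a2 (-0.83), Kit (-0.33) and Tpsab1 (-0.13) shrank and Tpsb2 turned to -0.02. Hdc was then at -0.09, and Cpa3, Cma1 and Fcer1a did not change.

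The receptor genes are taken first. Ms4a2 encodes the beta chain of the immunoglobulin E receptor. Its signals were 10.5, 148.3 and 39.4 on the RYGB-Success arrays, 277, 126 and 231 on the RYGB-Fail arrays and 219, 150.0 and 202 on the Pair-Fed arrays. The RYGB-Success values spread over more than a factor of 10, and the highest of them lay just under the lowest Pair-Fed value. The difference, RYGB-Success minus Pair-Fed, was -2.25 ± 0.88 (limma, adjusted p = 0.876). The RYGB-Success mean lay under the filter signal. With every lower value raised to that signal the mean of this probe set was 1.78-fold lower in RYGB-Success. Without Success 1, the lowest array, the difference was -1.30. The second Ms4a2 probe set gave 3.57, 68.7 and 108 in RYGB-Success, 2.55, 1.87 and 145 in RYGB-Fail and 97.97, 3.50 and 29.1 in Pair-Fed. It did not follow the first, its groups overlapped, and its difference was 0.47.

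Fcer1a had signals of 311, 297 and 350.2 in RYGB-Success, 379, 208 and 738 in RYGB-Fail and 472, 361 and 333 in Pair-Fed. The RYGB-Success arrays lay close together and within reach of the Pair-Fed arrays, with a difference of -0.27 ± 0.46 (limma, adjusted p = 0.975). Kit, the receptor for stem cell factor, read 13.7, 82.4 and 57.0 in RYGB-Success, 59.0, 4.04 and 227 in RYGB-Fail and 80.8, 177 and 59.5 in Pair-Fed. Its groups overlapped, most values lay under the filter signal, and the difference of -1.24 was not tested. Hdc read 87.7, 127 and 126 in RYGB-Success, 148 (Fail 1), 76.0 and 177 in RYGB-Fail and 183, 83.0 and 105 in Pair-Fed. Its difference was -0.06 ± 0.62 (limma, adjusted p = 0.994), and no group stood apart.

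The granule proteases follow. Cpa3, which trims peptides from their C-terminal end, had signals of 592, 2106 and 786 on the RYGB-Success arrays, 4369.7, 2744 and 668 on the RYGB-Fail arrays and 5514, 2983 and 1374 on the Pair-Fed arrays. Success 1 and Success 3 lay under all Pair-Fed arrays, and Success 2 lay above the lowest of them. The difference was -1.51 ± 0.71, 2.85-fold lower in RYGB-Success (limma, adjusted p = 0.975). Cma1 had 676, 954 and 388 in RYGB-Success, 2185, 996 and 603 in RYGB-Fail and 2814, 1456 and 1054 in Pair-Fed. All RYGB-Success arrays lay under all Pair-Fed arrays, and the difference was -1.37 ± 0.53, 2.58-fold lower in RYGB-Success (limma, adjusted p = 0.861).

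Both tryptase genes, Tpsb2 and Tpsab1, were dim. They are neighbours on chromosome 10 in the RefSeq annotation, with 0 protein-coding genes between them, and as close relatives their probe sets may share signal. Tpsb2 read 90.1, 191 and 89.4 in RYGB-Success, 156, 179 and 168 in RYGB-Fail and 25.5, 125 and 143 in Pair-Fed. Its difference, RYGB-Success minus Pair-Fed, was 0.59 ± 0.75 (limma, adjusted p = 0.975), and it was -0.21 without Pair-Fed 1, the lowest array. Tpsab1 read 96.9, 15.03 and 85.3 in RYGB-Success, 117, 81.1 and 36.0 in RYGB-Fail and 127 (Pair-Fed 1), 88.4 and 55.4 in Pair-Fed. Its groups overlapped, and the difference of -0.78, which was 0.089 without Success 2, was not tested.

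**Figure D2:**
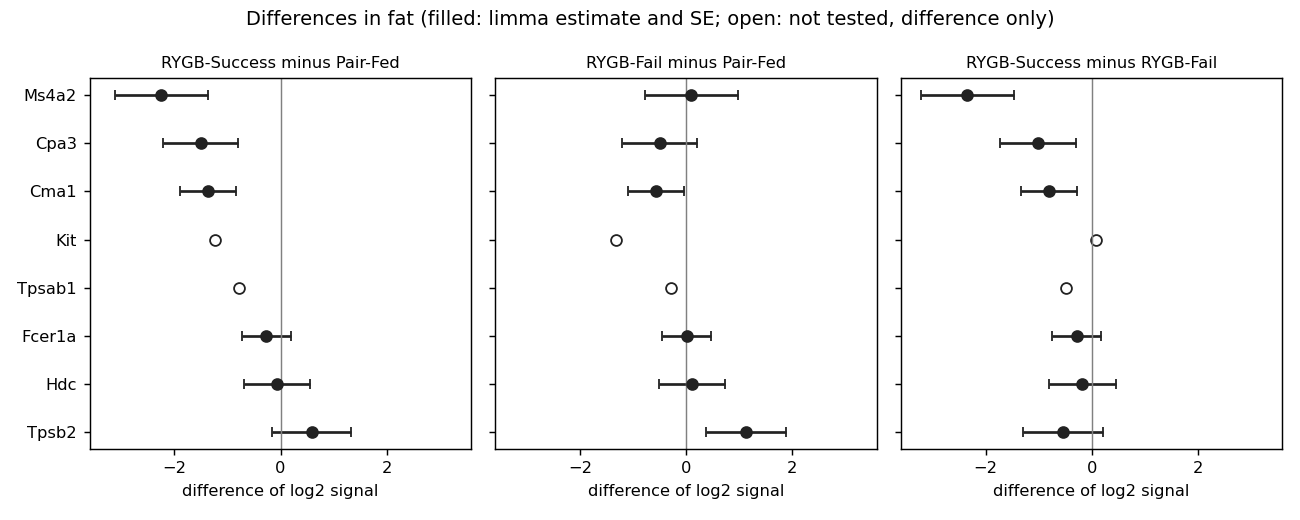
Difference of mean log2 signal in fat for the 8 genes in the 3 comparisons, with filled points and bars for limma estimates ± SE (3 arrays a group) and open points for genes that were not tested. Ms4a2, Cpa3 and Cma1 lie furthest below 0 in RYGB-Success minus Pair-Fed, at -2.25, -1.51 and -1.37, and in RYGB-Fail minus Pair-Fed they lie at 0.10, -0.50 and -0.57.

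RYGB-Fail fat was set against Pair-Fed fat to ask the same of animals gaining weight. Of the 8 genes 4 had a lower and 4 a higher mean in RYGB-Fail, and none of the 6 tested passed (0% of 18625 probe sets did, and 58.1% had a difference below 0). None had an unadjusted p under 0.05, against 2.69% of all probe sets. The median difference was -0.14 over the 8 genes, 0.05 over the 6 tested and -0.09 over all probe sets tested. Ms4a2 had 0.10 ± 0.88, Fcer1a 0.01 ± 0.46 and Hdc 0.11 ± 0.62. Cpa3 had -0.50 ± 0.71 and Cma1 -0.57 ± 0.53, each with an adjusted p = 1.00 by limma, as had the others. Tpsb2 was the 1 gene whose groups did not overlap, with all 3 RYGB-Fail arrays above the Pair-Fed arrays, which held for 2.57% of probe sets, while 4.33% lay apart the other way. Its difference was 1.12 ± 0.75 (limma, adjusted p = 1.00), and it was 0.33 without Pair-Fed 1, the array with a signal of 25.5. Kit (-1.33) and Tpsab1 (-0.29) were not tested, and their values were 0.29 without Fail 2 and 0.19 without Fail 3.

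Fail 3 weighed on these values. On that array Cpa3 and Cma1 had the lowest signals of the RYGB-Fail group, 668 and 603, while Fcer1a (738) and Kit (227) had the highest of all 9 fat arrays. Without Fail 3 the differences, RYGB-Fail minus Pair-Fed, were 0.29 for Cpa3 and -0.14 for Cma1. The median signal of Fail 3 was also the highest in fat, and its part in these values was not tested.

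RYGB-Success was compared with RYGB-Fail to set operated animals losing weight against operated animals gaining it. Of the 8 genes 7 had a lower mean in RYGB-Success and Kit a higher one, by 0.08 (-1.53 without Fail 2 and 1.37 without Fail 3). None of the 6 tested passed (0% of 18625 probe sets did, and 37.4% had a difference below 0). In none of the 8 were the groups apart, where 2.61% of probe sets were apart as lower and 5.26% as higher. Ms4a2 had the lowest unadjusted p, with a difference of -2.35 ± 0.88 (limma, adjusted p = 0.827), or -1.39 without Success 1. Here 5.69% of all probe sets had an unadjusted p under 0.05. Cpa3 had -1.01 ± 0.71 and Cma1 -0.80 ± 0.53 (limma, adjusted p = 0.895 for each), and with 1 array left out they ran from -1.80 (without Fail 3) to -0.45 (without Fail 1) for Cpa3 and from -1.23 to -0.30 for Cma1, without the same arrays. Fcer1a had -0.28 ± 0.46, Hdc -0.17 ± 0.62 and Tpsb2 -0.54 ± 0.75. The median difference was -0.51 over the 8 genes, -0.67 over the 6 tested and 0.17 over all probe sets tested. The 3 comparisons share groups, so their values are not independent of one another.

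Cpa3 and Cma1 varied alike from array to array. The pair was singled out after its values were seen, so the relation is a description with no p. Across the 9 fat arrays their log2 signals had a Pearson r of 0.906 and a Spearman rho of 0.883. Without Fail 3 and Success 1, the arrays farthest from the median of Cpa3, r was 0.943, and it was 0.865 after each group's mean was taken off. Both were high on Fail 1 and Pair-Fed 1, and both were low on Success 1, Success 3 and Fail 3. Mcpt1l1, a chymase-type protease of the rat mast cell protease 1 family, was likewise singled out after its values were seen. Its signals were 704, 1421 and 571 in RYGB-Success, 1906, 2183 and 645 in RYGB-Fail and 3229.7, 2027 and 1645 in Pair-Fed. All RYGB-Success arrays lay under all Pair-Fed arrays, with a difference of -1.41 ± 0.50 (limma, adjusted p = 0.796). Its r was 0.937 with Cpa3 and 0.901 with Cma1, and 0.928 and 0.822 with group means removed. Without the arrays farthest from the median these were 0.894 and 0.793. All probe sets of an array share its RNA and its spread of signals, whose part in these correlations was not tested.

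**Figure D3:**
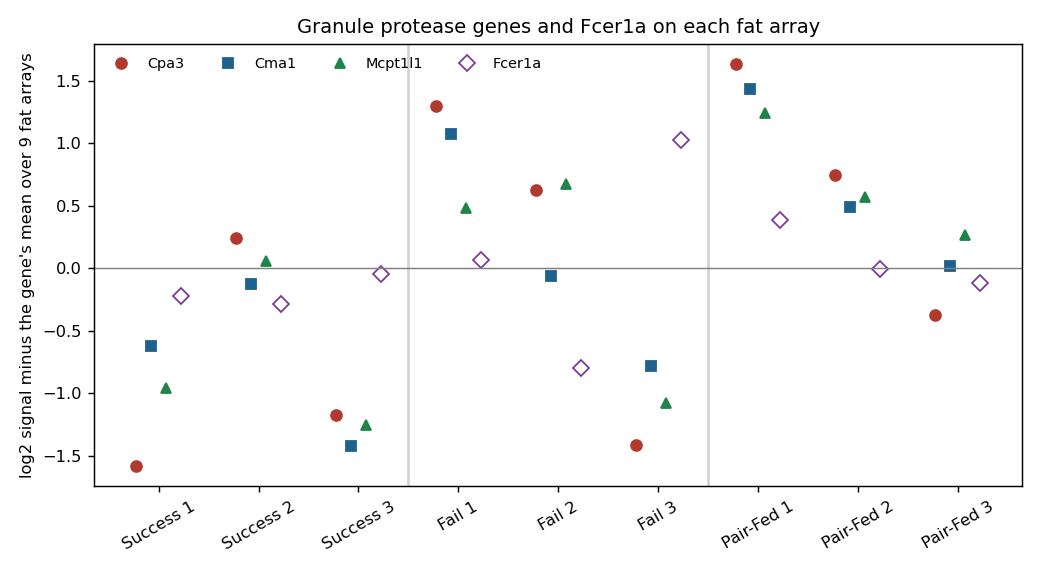
Log2 signal of Cpa3, Cma1, Mcpt1l1 and Fcer1a on each fat array, minus the gene's mean over the 9 fat arrays. The 3 proteases lie together, above their means on Pair-Fed 1 and Pair-Fed 2 and below them on Success 1, Success 3 and Fail 3, while Fcer1a is highest on Fail 3, at a signal of 738.

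The genes differed in how far they followed one another. The r of each gene with the mean of the other 7 over the 9 fat arrays was 0.753 for Ms4a2, 0.595 for Cma1, 0.483 for Cpa3, 0.483 for Hdc, 0.424 for Fcer1a and 0.319 for Kit. Both tryptases had a negative value, -0.158 for Tpsab1 and -0.304 for Tpsb2. These are given as a description, with no test. Among the 13220 other named probe sets that passed the fat filter, Rbpj, the nuclear effector of Notch receptors, was most like the mean of the 8 genes (r = 0.963 over 9 arrays). Next came Atp8b2 (0.927), Atg3, an enzyme of autophagy (0.906), Ctnnd1, which binds cadherins (0.905), and Prune2 (0.905). Tnfrsf11b, Clec3b, Lrrc8b, Prkd3 and Adamts12 completed the first 10, with r of 0.899, 0.898, 0.898, 0.894 and 0.892. After group means were removed 2 of the 10 stayed among the first 10. The mean of the 8 genes was centred by gene but not scaled, so genes of wide spread weighed more in it. The standard deviation in fat was 1.80 for Kit and 0.47 for Hdc. Kit and Tpsab1, which had not passed the filter, were part of that mean, so the ranking rests partly on dim values. Slc18a2, which loads histamine into granules, ranked 110 with r = 0.775, and Mcpt1l1 ranked 710 with r = 0.571. Of the 21 other mast cell genes that passed the filter 5 had a negative r, the lowest being -0.722 for Gzmb, -0.416 for Tal1 and -0.363 for Mcpt3.

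The 250 bases before the annotated start are shown for the 3 proteases whose signals correlated, from RefSeq (GRCr8 assembly, written 5′ to 3′ on the gene's own strand, minus in each case). Of the 8 genes 7 had a promoter in that table. Ms4a2 had none there. Capitals mark matches to AGATAA or TGATAA, letters read by GATA factors, and to CACATG or CACGTG, E-boxes of the kind that Mitf reads, searched on both strands. None of the matches overlapped another. Mcpt1l1 and Cma1 both lie on chromosome 15, with 14 protein-coding genes between them, most of which belong to the same protease cluster. The windows are chr2:104673238-104673487 for Cpa3, chr15:33390134-33390383 for Cma1 and chr15:33876896-33877145 for Mcpt1l1.
Cpa3: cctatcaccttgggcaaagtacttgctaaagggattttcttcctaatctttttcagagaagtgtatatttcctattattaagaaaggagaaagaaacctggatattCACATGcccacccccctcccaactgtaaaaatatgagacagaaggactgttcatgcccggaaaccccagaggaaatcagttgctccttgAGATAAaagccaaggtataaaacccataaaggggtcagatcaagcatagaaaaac
Cma1: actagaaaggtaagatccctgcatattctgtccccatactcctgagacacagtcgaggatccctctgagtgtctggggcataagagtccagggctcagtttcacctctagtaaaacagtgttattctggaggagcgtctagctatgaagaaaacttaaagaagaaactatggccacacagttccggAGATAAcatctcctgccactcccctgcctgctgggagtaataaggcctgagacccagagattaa
Mcpt1l1: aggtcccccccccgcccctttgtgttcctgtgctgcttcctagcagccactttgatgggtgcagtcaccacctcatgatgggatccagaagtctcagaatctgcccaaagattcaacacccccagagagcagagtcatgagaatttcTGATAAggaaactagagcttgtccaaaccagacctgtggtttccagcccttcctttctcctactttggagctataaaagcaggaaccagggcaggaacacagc

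In Cpa3 the letters AGATAA stand at positions -55 to -50, counted back from the start at -1, and CACATG at -144 to -139. In Cma1 AGATAA stands at -64 to -59, and in Mcpt1l1 TGATAA stands at -103 to -98. Fcer1a holds AGATAA on the opposite strand at -93 to -88 and CACATG at -208 to -203, and Tpsb2 holds CACATG on the opposite strand at -209 to -204. Tpsab1, Kit and Hdc hold none of these letters in their windows. Of the 7 members with a promoter, 3 hold a GATA match and 3 an E-box match, where 16.6% and 17% of all 27457 promoters of that length do. By motif the shares of all promoters were 10% for AGATAA, 7.87% for TGATAA, 11.7% for CACATG and 5.79% for CACGTG. Such matches describe the letters only, and no binding was measured.

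Other genes known from mast cells were divided in fat. Of 33 listed, 26 were on the array, and in RYGB-Success minus Pair-Fed 8 were higher and 18 lower, with a median of -0.21. Of the 21 tested 0 passed by limma. In 3 genes all RYGB-Success arrays lay below the Pair-Fed arrays, namely Mcpt1l1, Ltc4s, which makes leukotriene C4 (-1.01 ± 0.70), and Mcpt8, a protease typical of basophils in mice (-2.83, not tested, with all values in both groups under the filter signal). In 4 they lay above, namely Mcpt3 (1.05), Gzmb (1.31), Cd200r1 (1.30) and Rab27b (0.70), of which Gzmb is also made by cytotoxic lymphocytes. These 7 were named after their values were seen, and backgrounds for such separation were 7.69% for lower and 10.9% for higher. Alox5ap, which serves 5-lipoxygenase, and Hpgds, which makes prostaglandin D2, had -1.60 ± 0.96 and -1.41 ± 0.92 with overlapping groups. In RYGB-Fail minus Pair-Fed 12 were higher and 14 lower (median -0.16), and in RYGB-Success minus RYGB-Fail 11 were higher and 15 lower (median -0.09), with 0 called in each. Against hypothalamus 15 of the 15 tested passed, 12 higher in fat and 3 lower, where 65.2% of all probe sets passed and 37% passed as higher. Genes dim in hypothalamus, such as Mcpt1l1 (2.00 to 62.5 there), passed the filter over both tissues only through their fat signals. That these were higher in fat was set by the filter, so the count is no result.

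Genes of the signalling chain below the immunoglobulin E receptor gave no calls either. Of 17 on the array 12 were higher and 5 lower in RYGB-Success than in Pair-Fed fat, where 41.8% of all probe sets were lower, with a median of 0.35 and 0 of 15 called. Fcer1g, the gamma chain that the receptor shares with other Fc receptors, had -0.76 ± 0.58. Lyn, the kinase that first phosphorylates the receptor, had 0.56 ± 0.52 with all RYGB-Success arrays above, as in 10.9% of all probe sets. Syk, the kinase recruited next, had 0.35 ± 0.49. In RYGB-Success minus RYGB-Fail 13 were higher and 4 lower, where 37.4% of all probe sets were lower, with a median of 0.39 and 0 called. There the adaptor gene Lat had 2.19 ± 0.79, Plcg1, a phospholipase, 0.82 ± 0.31, and Vav1, an exchange factor of blood cells, 2.09 ± 0.81, each with an adjusted p of 0.827 to 0.830 by limma. In these 3 and in Inpp5d, a phosphatase that damps the signal (0.63), every RYGB-Success array lay above every RYGB-Fail array, as in 5.26% of all probe sets. Lat and Vav1 are also genes of T lymphocytes. The lymphocyte markers had a mean log2 signal of 7.03 to 10.3 in RYGB-Success and 6.37 to 7.37 in RYGB-Fail. These ranges overlapped, and the part of lymphocytes in the values of Lat and Vav1 was not tested. In RYGB-Fail minus Pair-Fed 6 were higher and 11 lower (median -0.42, 0 called).

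Growth and recruitment factors and the histamine and protease pathway gave 0 calls among treatment groups. Of 11 growth and recruitment factors on the array 6 were higher and 5 lower in RYGB-Success than in Pair-Fed fat. The median was 0.27 over all 11 and -0.17 over the 8 tested, so its sign rested on the dim genes. Kitlg, the stem cell factor gene, had signals of 780.2, 1449 and 585 in RYGB-Success, 1088, 489 and 616 in RYGB-Fail and 908, 1191 and 813 in Pair-Fed. Its groups overlapped, with -0.14 ± 0.42 for RYGB-Success and -0.48 ± 0.42 for RYGB-Fail, each minus Pair-Fed. Cx3cl1, the chemokine fractalkine, read 238, 245 and 152 in RYGB-Success, 59.2, 112 and 178 in RYGB-Fail and 28.7, 80.6 and 95.2 in Pair-Fed. All RYGB-Success arrays were above the Pair-Fed arrays (1.78 ± 0.71, limma adjusted p = 0.913), and the means differed 2.28-fold with low values raised to the filter signal. Il13 (1.47, not tested) also lay above, as did 10.9% of all probe sets. Against RYGB-Fail, Il13 (1.73, not tested) and Tgfb1 (1.77) lay above, as did 5.26% of all probe sets. Of 13 genes for histamine and protease receptors and for histamine breakdown, 6 were higher and 7 lower (median -0.28, 7 tested). The groups were apart for F2rl1, a receptor cleaved by tryptase, and for Aldh7a1, an aldehyde dehydrogenase. In RYGB-Success minus Pair-Fed 10.9% of all probe sets lay apart as higher and 7.69% as lower. In RYGB-Fail minus Pair-Fed these shares were 2.57% and 4.33%. F2rl1 was above Pair-Fed in RYGB-Success (2.40) and RYGB-Fail (2.24), with Pair-Fed signals of 4.68 to 38.2 under the filter signal and no test. Aldh7a1 was below Pair-Fed in RYGB-Success (-0.31 ± 0.31) and RYGB-Fail (-0.56 ± 0.31). F2rl1, Aldh7a1, Il13 and Tgfb1 were named after their values were seen.

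Markers of other cells differed in level among the same fat arrays. In RYGB-Success minus Pair-Fed all 10 fibroblast markers were lower with groups apart, as were 7.69% of all probe sets, and their mean log2 signal was 10.6 to 11.6 in RYGB-Success, 11.6 to 12.8 in RYGB-Fail and 12.7 to 13.1 in Pair-Fed. Macrophage markers were lower in 10 of 11, at 9.37 to 10.002 in RYGB-Success, 8.84 to 10.9 in RYGB-Fail and 9.81 to 10.99 in Pair-Fed. Markers of skin and mammary epithelium were higher in 13 of 13, at 5.74 to 9.29 in RYGB-Success, 4.90 to 7.41 in RYGB-Fail and 5.42 to 5.52 in Pair-Fed. Lymphocyte markers were higher in 9 of 9, at 7.03 to 10.3 in RYGB-Success, 6.37 to 7.37 in RYGB-Fail and 6.20 to 7.09 in Pair-Fed. All 4 blood cell markers had higher means in RYGB-Success, by a median of 1.72 over Pair-Fed, at 9.03 to 11.5 in RYGB-Success, 6.87 to 8.64 in RYGB-Fail and 7.98 to 8.61 in Pair-Fed, with all RYGB-Success arrays above the others. Skeletal muscle markers were at 8.56 to 14.1 in RYGB-Fail and 5.56 to 6.74 in Pair-Fed, higher in 14 of 14. None of these markers passed by limma, and their part in the mast cell values was not tested. For comparison, the mean log2 signal of the 8 mast cell genes was 6.70, 7.65 and 7.21 in RYGB-Success, 8.39, 7.27 and 7.98 in RYGB-Fail and 8.26, 8.13 and 7.76 in Pair-Fed. All RYGB-Success arrays thus lay below all Pair-Fed arrays, and RYGB-Fail overlapped both. The gap was narrow, 7.65 on Success 2 against 7.76 on Pair-Fed 3. The mean includes Kit and Tpsab1, which were too dim to be tested, with Tpsab1 at a signal of 15.03 on Success 2. With Kit and Tpsab1 left out, the mean on Success 2 lay above that on Pair-Fed 3, so the groups overlapped. The separation therefore rested on values under the filter signal.

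Cells that share genes with mast cells were also looked at. Basophils carry the immunoglobulin E receptor and histamine, and 4 of their markers on the array had a mean log2 signal of 4.98 to 5.44 in RYGB-Success, 4.71 to 7.35 in RYGB-Fail and 5.16 to 5.59 in Pair-Fed. The highest value was on Fail 3, where Fcer1a and Kit were also highest. Melanocytes carry Kit, and 6 of their markers were at 5.04 to 7.41 in RYGB-Success, 3.58 to 6.27 in RYGB-Fail and 5.05 to 5.39 in Pair-Fed. Eosinophil markers, 5 in all, were at 6.44 to 7.33 in RYGB-Success, 5.18 to 8.11 in RYGB-Fail and 6.09 to 6.84 in Pair-Fed. No marker of these lists was listed at 0.

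**Figure D4:**
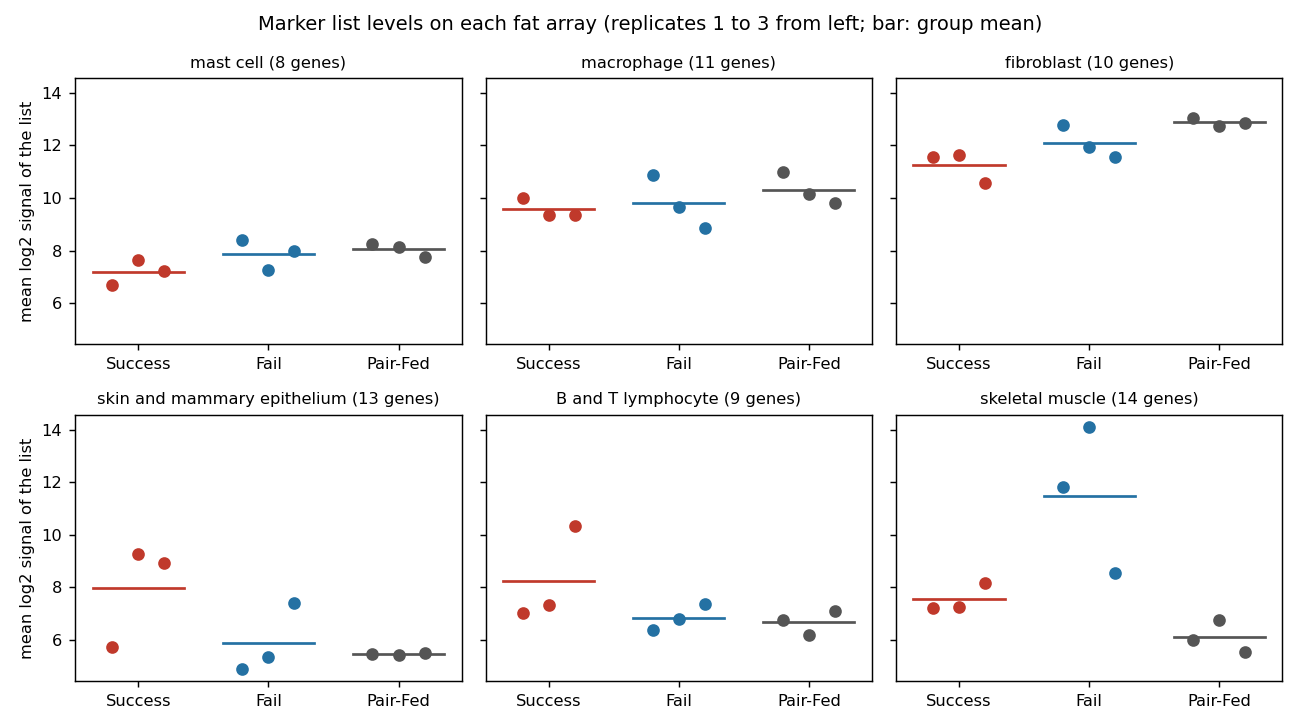
Mean log2 signal of the mast cell genes and of 5 marker lists of other cells on each fat array, with a bar at each group's mean. The mast cell mean lies at 6.70 to 7.65 in RYGB-Success and 7.76 to 8.26 in Pair-Fed, but these groups overlap once the dim genes Kit and Tpsab1 are left out. The fibroblast mean is lower in the same RYGB-Success arrays, at 10.6 to 11.6 against 12.7 to 13.1.

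In hypothalamus none of the 9 probe sets passed the filter, so no treatment difference was tested there (0.0107% of 18625 probe sets were called for RYGB-Success minus Pair-Fed). Among the 8 genes 7 had a higher mean in RYGB-Success than in Pair-Fed, with a median difference of 1.35, or 0.29 with the pseudocount, where 45.6% of all probe sets tested had a difference below 0. Blood cell markers were higher on the same arrays in 4 of 4, by a median of 2.59, at a mean log2 signal of 8.77 to 10.4 in RYGB-Success, 6.66 to 8.22 in RYGB-Fail and 6.64 to 7.57 in Pair-Fed, and their part was not tested. Cpa3 read 45.2, 71.4 and 53.8 in RYGB-Success, 51.2, 28.1 and 35.5 in RYGB-Fail and 28.1, 27.6 and 11.8 in Pair-Fed. It and Tpsb2 were above Pair-Fed on all RYGB-Success arrays, as were 10.8% of probe sets. With low values raised to the filter signal, the largest difference of a member gene, RYGB-Success minus Pair-Fed, was 0.40, for Hdc. The median differences were 0.62 for RYGB-Fail minus Pair-Fed and 0.61 for RYGB-Success minus RYGB-Fail. Whether the treatment difference itself differed between tissues was fitted for the 3 genes that passed the filter over both tissues. For RYGB-Success minus Pair-Fed, fat minus hypothalamus was -2.93 for Cpa3, -1.91 for Cma1 and -1.52 for Fcer1a. None passed (limma, adjusted p = 0.421, 0.665 and 0.892), nor did any in the other comparisons. These values rest on hypothalamus signals under the filter signal over both tissues, 71.7. The other genes were too dim for this fit.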

How the data were processed

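Total RNA of rat subcutaneous fat and hypothalamus was extracted with Qiagen RNeasy, amplified and biotin-labelled with NuGEN WT-Ovation and hybridised to 18 expression arrays, per the labels' protocols. The deposited table gives 1 intensity per probe set and array, on a linear scale. The submitters' processing notes name MAS5 and GCOS as the tools by which the authors made it, and their settings are not given in the sources used here. Each column had a trimmed mean intensity near 500.2 (range 500.13 to 500.20 with 2% cut at each end), so the deposited arrays were already scaled alike. MAS5 signals scatter widely on a log scale at the low end, and detection calls were not used here.

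Of 31099 probe sets 20826 had 1 symbol, 436 several and 9780 none, and 57 controls were left out. For 20758 probe sets the gene was found in a RefSeq table of GRCr8. Log2 of the deposited intensity was taken with no pseudocount, the upper 60% of probe sets by mean in a tissue was kept (18625), and limma 3.58.1 under R 4.3.3 (lmFit and trended eBayes) compared the groups over the 9 arrays of a tissue, or the tissues over 18, 2-sided, with Benjamini-Hochberg adjustment at 0.05. For Ms4a2 the probe set with the highest fat mean stood for the gene, and other lists used the same rule. Where low values are said to be raised, values under the filter signal were set to it. Python 3.11.15, pandas 2.3.3, scipy 1.17.1 and matplotlib 3.10.9 served for tables, correlations and plots. The limma step was tested on simulated data. Precision is limited by the number of arrays, 3 per group.

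All 8 members were named whatever their result, with the 10 most alike genes. The plan allowed up to 4 genes of lowest p per list. Further genes of the lists were named beyond it, some of them after their values were seen. Members and lists were chosen with earlier results of these data known. Alternatives were a pseudocount, other filters, quantile normalization, median centring, array weights, the mean of a gene's probe sets, leaving out each array and a replicate block.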

Additional observations from a re-analysis of the deposited data

How the results depend on the processing

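In no fat comparison among treatment groups did a member probe set pass under any alternative run, although counts over all probe sets moved. With array weights 39, 35 and 26 probe sets passed for RYGB-Success minus Pair-Fed, RYGB-Fail minus Pair-Fed and RYGB-Success minus RYGB-Fail. Without Fail 3 there were 44 for RYGB-Fail minus Pair-Fed and 1050 for RYGB-Success minus RYGB-Fail, and without Success 1 there were 22 for RYGB-Success minus Pair-Fed and 13 for RYGB-Success minus RYGB-Fail. The median of the 8 genes in RYGB-Success minus Pair-Fed was -0.39 with a pseudocount of 10% of the mean signal, and -1.33 to -0.73 with 1 array left out. In RYGB-Fail minus Pair-Fed the median ran from -0.40 to 0.36 with 1 array left out, and was 0.36 without Fail 2. The tissue median of 3.20 was 1.01 with the pseudocount, 2.44 after quantile normalization and 2.66 after median centring. In the tissue comparison 8 member probe sets passed with no filter and 1 with the upper 40%, where 65.2% of all probe sets passed in the main run. With 70 of the 81 hypothalamus values of the members under 52.7, these counts are no result about the members. The hypothalamus median, RYGB-Success minus Pair-Fed, was 0.29 with the pseudocount. Directions turned for RYGB-Fail minus Pair-Fed in Cma1 (0.076) and Cpa3 (0.33) with array weights, Fcer1a with median centring (-0.062) and array weights (-0.12), and Hdc (-0.020) and Ms4a2 (-0.12) with quantile normalization; the cause was not tested. With 1 array left out the ranges were -1.06 to 0.29 for Cpa3, -0.45 to 0.46 for Fcer1a, -0.14 to 0.47 for Hdc, -0.14 to 0.43 for Ms4a2, 0.33 to 1.57 for Tpsb2, -2.62 to 0.29 for Kit and -0.66 to 0.19 for Tpsab1 there, -0.31 to 0.26 for Hdc, -0.21 to 1.03 for Tpsb2 and -1.25 to 0.089 for Tpsab1 in RYGB-Success minus Pair-Fed, and -0.73 to 0.18 for Fcer1a, -0.54 to 0.074 for Hdc, -1.53 to 1.37 for Kit and -0.96 to 0.38 for Tpsab1 in RYGB-Success minus RYGB-Fail. Deviations of same-numbered arrays correlated at -0.13 to 0.29 in fat, -0.16 to 0.07 in hypothalamus and -0.06 to 0.20 between tissues. The labels do not say what a shared replicate number stands for, and these correlations cannot show whether samples were paired. With the replicate number as a block the medians were -1.01, -0.14 and -0.51 in the fat comparisons, and 0 member probe sets passed.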
